A study of Mus musculus with 3 samples.

Results

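Wide stretches of histone H3 lysine 27 acetylation (H3K27ac) were described in bone marrow hematopoietic stem cells of aged mice. They were chosen by width, the end minus the start of a row in the deposited H3K27ac peak list, as the rows on chromosomes 1 to 19 of at least 4000 bp, 427 of 93413 H3K27ac regions in the list and of 92455 on these chromosomes. The cells came from C57BL/6 mice aged 24 months and were sorted as SP-KSL-CD150+ cells. KSL stands for lineage-negative marrow cells with c-Kit and Sca-1, CD150 is a stem cell antigen, and SP is a further criterion of the sort. H3K27ac and H3K4me1 (mono-methylation of histone H3 lysine 4) were each mapped by chromatin immunoprecipitation sequencing in 1 library, and an input library was not analysed here. The labels place every library under biological replicate 1, so no difference below could be tested against replicates and no p-value is given. The marker genes of the sort could not be checked, because no RNA was measured in these libraries.

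H3K27ac is written by the acetyltransferases p300 and CBP and marks active promoters and active enhancers. H3K4me1, written mainly by the MLL3 and MLL4 enzymes, marks enhancers and the shoulders of active promoters. At an active promoter the start site itself usually carries tri-methylation of the same lysine in place of mono-methylation, which leaves a dip in H3K4me1. Long acetylated stretches occur at clustered enhancers, often called super-enhancers, and around the promoters of strongly expressed genes that define a cell type. No gene is named and no sequence is shown for the regions below, because no annotation or genome of build mm9, in which the list gives its positions, was used here.

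The wide regions ranged from 4000 to 15518 bp, with a median of 4910 bp (quartiles 4319 and 5870 bp). Of the 427, 200 reached 5 kb, 94 reached 6 kb, 32 reached 8 kb and 9 reached 10 kb. They made up 0.462% of the acetylated regions of the autosomes and 4.16% of the acetylated length, 2.30 of 55.3 Mb. Every value of the H3K27ac library in these regions follows from the same peaks that the width rule selected, so it is given as a description. The authors' fold, which their peak caller gives as summit signal over local background, had a median of 13.0 (quartiles 9.75 and 16.9) and ran from 4.81 to 34.3. The summits held a median of 45 reads (quartiles 36 and 60), with a range of 19 to 116. By comparison the 3324 autosomal regions of 2 to 4 kb had a median fold of 11.2 and 39 summit reads, and all autosomal regions had 3.84 and 13. Width and fold were only loosely related among the wide regions, with a Spearman rho of 0.162 over 427 regions of 1 library that share its depth.

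The regions just inside the limit lay at chr11:49658397-49662396 (4000 bp, 9.12-fold), chr10:59362651-59366653 (4003 bp, 20.1-fold) and chr6:72461355-72465359 (4005 bp, 15.1-fold). Those just outside lay at chr6:52661017-52665014 (3998 bp, 28.1-fold), chr2:38384838-38388832 (3995 bp, 10.04-fold) and chr12:88235838-88239830 (3993 bp, 9.46-fold). The limit thus falls within a continuous run of widths.

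**Figure D1:**
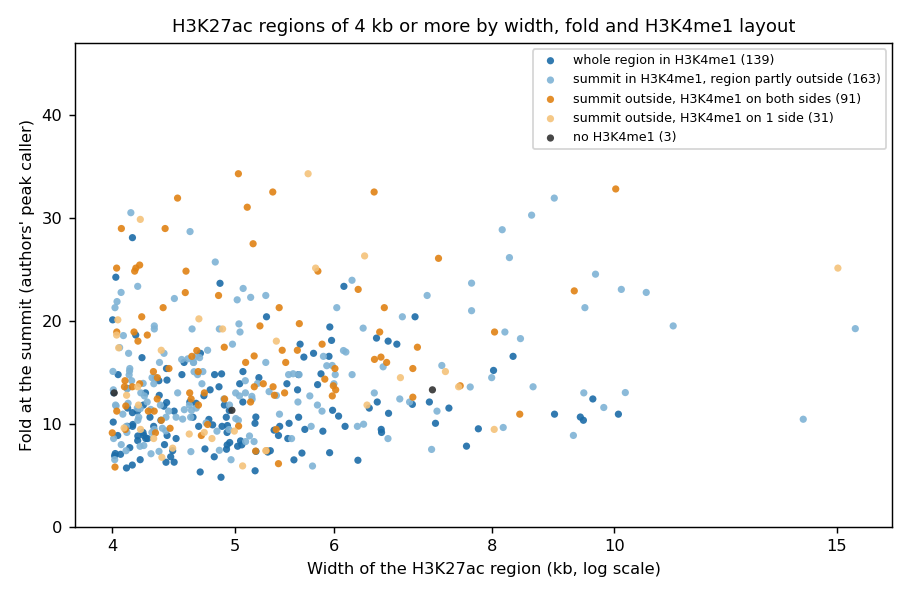
Each point is 1 of the 427 H3K27ac regions of 4 kb or more, placed by its width (kb, log scale) and by the authors' fold at its summit, and coloured by where H3K4me1 lay. Regions wholly inside H3K4me1 reach 28.1-fold, and the highest point, at 34.3-fold, belongs to regions with the summit outside H3K4me1.

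The wide regions were spread over all 19 autosomes. Chromosome 2 held 34 of them, chromosomes 3 and 7 held 31 each, and chromosome 12 held 11. As a share of the H3K27ac regions on the chromosome they were most frequent on chromosome 15 (29 of 3902, 0.743%) and chromosome 19 (20 of 2917, 0.686%). They were least frequent on chromosome 9 (14 of 5106, 0.274%), chromosome 12 (0.275%) and chromosome 1 (17 of 6115, 0.278%). The sex chromosomes were outside the rule and held no region of this width. The widest of the 954 H3K27ac regions on chromosome X spanned 3391 bp, and the widest of the 4 on chromosome Y spanned 1924 bp.

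The 3 widest regions differed in how much of them H3K4me1 covered and in whether it held the summit. The widest lay at chr17:84352492-84368009 and spanned 15.5 kb, with a summit of 19.2-fold (91 reads) placed 3480 bp from its start. H3K4me1 covered 97.8% of it as 1 region that contained the summit. The next, at chr17:28144379-28159411, spanned 15.03 kb and had its 25.1-fold summit only 479 bp from the lower end. That summit lay in a stretch of 2797 bp without H3K4me1, although H3K4me1 covered 81.6% of the whole region. The third, at chr3:30400021-30414132 (14.1 kb, 10.4-fold), met 2 H3K4me1 regions that covered 56.4% of it, with the summit inside.

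The other 7 of the 10 widest were between 9.81 and 11.1 kb. They lay at chr14:77085905-77097035 (19.5-fold, 95.2% of the length in H3K4me1), chr2:103768950-103779546 (22.8-fold, 97.3%) and chr1:92948881-92959080 (13.0-fold, 81.7%). A further region at chr2:103739199-103749324 reached 23.0-fold with 97.7% of its length covered. At chr11:70393109-70403180 the whole length was covered at 10.9-fold. The region at chr7:29159607-29169629 was both among the widest and among the strongest, at 32.8-fold and 110 reads, and met 4 H3K4me1 regions that covered 60.3% of it and left out the summit. At chr11:96164672-96174478 (11.6-fold), 5 H3K4me1 regions covered 69.5%. In 8 of these 10 regions the summit lay inside H3K4me1.

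**Figure D2:**
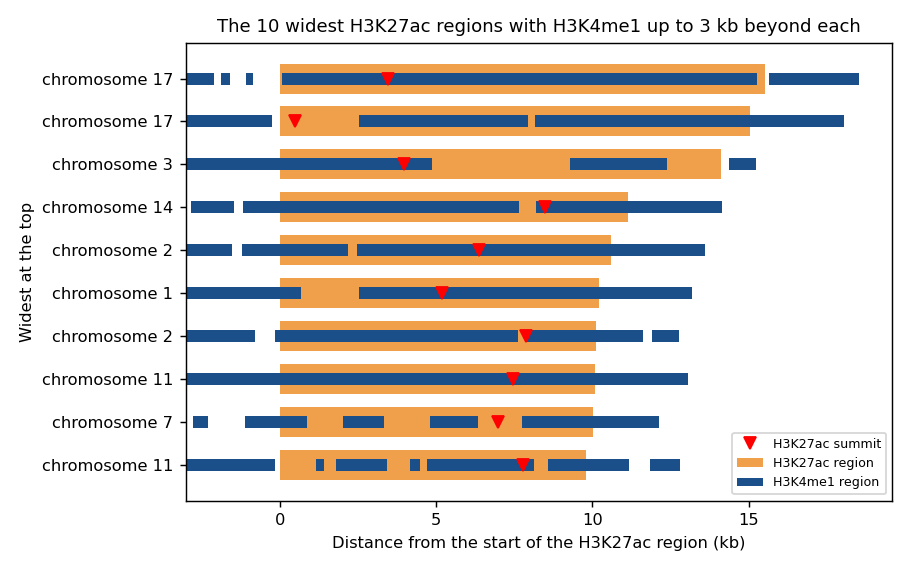
Orange bars are the 10 widest H3K27ac regions, drawn from their start (kb), dark blue bars are H3K4me1 regions in them and up to 3 kb beyond, and red triangles are H3K27ac summits. The summit sits in an H3K4me1-free stretch in the second bar (chromosome 17, 15.03 kb) and in the bar of chromosome 7, and the bar of chromosome 11 at 10.1 kb is covered over its whole length.

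Summits were more often near the centre of a wide region than near an end. Position was measured as the distance of the summit from the centre divided by the distance from centre to end, so that 0 is the centre and 1 an end. The median was 0.34 (quartiles 0.16 and 0.52) in the wide regions and 0.31 (quartiles 0.15 and 0.50) in the regions of 2 to 4 kb. A position below 0.25 was held by 174 of the 427 summits (40.7%, exact 95% interval 36.0 to 45.6%) and one of 0.75 or more by 34 (7.96%, interval 5.58 to 10.95%). In the regions of 2 to 4 kb the shares were 41.5% and 7.46%. In absolute terms the summit of a wide region lay a median of 1734 bp from the nearer end, against 859 bp in regions of 2 to 4 kb. It was nearer to the end with the lower coordinate in 223 of the 427 (52.2%, interval 47.4 to 57.0%), and the strand of any gene nearby was not known here. Neither width nor fold moved with the position to any extent (Spearman rho 0.06 and -0.10 over 427 regions). The list gives 1 summit for each region, so a second maximum inside a wide region is not seen.

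A few summits sat close to an end. Of the 427, 24 lay within 500 bp of one (5.62%), against 560 of 3324 regions of 2 to 4 kb (16.8%). A fixed distance takes up more of a shorter region, so these 2 shares do not compare relative positions. By relative position the most extreme was at chr6:114863771-114871800, an 8030 bp region of 9.46-fold with its summit 7877 bp from the start, inside an H3K4me1-free stretch of 6134 bp. The region at chr7:99588382-99593718 had its 7.39-fold summit 132 bp from the start and was covered by H3K4me1 throughout. At chr19:46673621-46678694 the 5.91-fold summit was 141 bp from the start and outside H3K4me1. At the other extreme, regions at chr5:141070182-141074536 (14.2-fold) and at chr18:68623478-68627835 (12.8-fold) had the summit within a relative distance of 0.004 of the centre, and both lay wholly in H3K4me1.

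**Figure D3:**
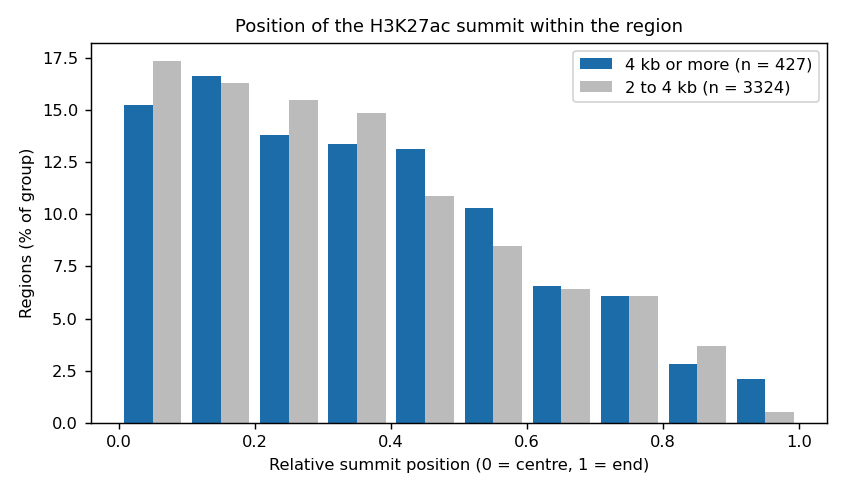
Bars give the share of regions (%) with the summit in each of 10 equal steps from the centre (0) to an end (1), in blue for the 427 regions of 4 kb or more and in grey for the 3324 regions of 2 to 4 kb. Both groups fall toward the end, to 2.11% in the last step for the wide regions and 0.511% for those of 2 to 4 kb.

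Nearly every wide acetylated region met H3K4me1, which is a separate library and was not used to choose the regions. Of the 427, 424 had 1 bp or more in common with H3K4me1 (99.3%, exact 95% interval 97.96 to 99.85%), against 98.9% of regions of 2 to 4 kb and 72.0% of all autosomal H3K27ac regions. A long region is more likely to touch another mark wherever it lies, so a single base or a share of length compares regions of unlike width better than contact does. Intervals here describe counting error only: the reads carry no molecular identifiers and regions of 1 domain are related. H3K4me1 covered a median of 91.7% of the length of a wide region (quartiles 66.7 and 100%), against 71.4% (quartiles 38.5 and 100%) in regions of 2 to 4 kb. The median was 88.4% over all autosomal regions and 93.0% in those under 1 kb, so a high median was not limited to the wide ones. Summed over all 427, 1.84 of 2.30 Mb lay in H3K4me1, a share of 80.0%, against 67.6% for regions of 2 to 4 kb and 66.3% for all autosomal regions. At least 90% of the length was covered in 228 wide regions, under 50% in 66 and under 10% in 6. Over all autosomal regions 46.1% were covered throughout and the lower quartile of cover was 0%. High cover was thus frequent there too, and little or no cover was more frequent than in the wide regions. Regions with a higher fold had less of their length covered, with a Spearman rho of -0.32 over the 427, whereas width was almost unrelated to coverage (rho 0.05).

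The H3K4me1 regions that met the wide acetylated ones were themselves wide and strong. However, the number met, and the widest and strongest of them, grow with the length of the acetylated region. Cover of an end base or of the 2 kb beyond an end is measured over a fixed length. The widest H3K4me1 region met had a median of 5970 bp, against 3295 bp for regions of 2 to 4 kb, and the strongest one met had a median fold of 9.16 against 7.79. An H3K4me1 region of 4 kb or more was met by 312 of the 427 (73.1%), against 40.3% of regions of 2 to 4 kb. In the other direction, 322 of the 5341 autosomal H3K4me1 regions of this width met a wide H3K27ac region (6.03%). Of the 458 H3K4me1 regions of 10 kb or more, 85 did. Among the wide H3K27ac regions 208 met 1 H3K4me1 region, 154 met 2, 50 met 3, 10 met 4 and 2 met 5. Where an end of the region was covered, H3K4me1 reached past it by a median of 1434 bp (686 covered ends). The median was 1123.5 bp at regions of 2 to 4 kb and 851 bp over all autosomal regions. The first and the last base were both covered in 283 regions (66.3%, against 68.4% of regions of 2 to 4 kb and 51.3% of all autosomal regions), 1 of them in 120 and neither in 24. In the 2 kb beyond each end H3K4me1 covered a median of 74.5%, against 63.5% beside regions of 2 to 4 kb.

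Along their scaled length the wide regions varied less in H3K4me1 than regions of 2 to 4 kb. Averaged over the 427, and with each region cut into 10 equal parts, it covered 84.6% of the first part, 76.0% and 77.9% of the middle parts and 85.0% of the last. Regions of 2 to 4 kb had nearly the same cover at the ends, 83.8% and 83.3%, but dropped to 53.5% and 53.6% in the middle. Equal parts are not aligned at the summit, so a dip around an off-centre summit is spread over several of them. Aligned at the summit, cover of the wide regions was 70.7% at the summit, 67.6% at 250 bp to either side and 81.3% at 1 kb. In regions of 2 to 4 kb it was 54.2%, 54.1% and 76.4%.

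The layout of H3K4me1 fell into 5 kinds. In 139 regions (32.6%, against 30.3% of regions of 2 to 4 kb and 46.1% of all autosomal regions) the whole acetylated length lay inside H3K4me1. In a further 163 (38.2%) the summit was inside H3K4me1 but part of the region was not. In 91 (21.3%, interval 17.5 to 25.5%) the summit lay outside H3K4me1 with H3K4me1 in the region on both sides of it. That layout was more frequent at 2 to 4 kb (33.8%, interval 32.2 to 35.5%), was held by 21.1% of regions of 1 to 2 kb and by 4.17% of all autosomal regions, and came to 7.49% of the wide regions when H3K4me1 had to be present 1 kb from the summit on both sides. In 31 (7.26%) H3K4me1 lay on 1 side of an uncovered summit, and 3 regions held none. At 2 to 4 kb, 3289 of 3324 regions met H3K4me1. The summit was inside it in 1803, of which 1008 were covered throughout. It lay on both sides of an uncovered summit in 1124 and on 1 side in the rest. Over all autosomal regions, 66546 of 92455 met H3K4me1. The summit was inside it in 54039, of which 42662 were covered throughout. It lay on both sides in 3853 and on 1 side in the rest.

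Strength went with layout. Median fold was 10.6 (quartiles 8.57 and 13.8) in the wholly covered regions and 13.6 (quartiles 10.8 and 17.1) in those covered at the summit but not throughout. It was 15.4 (quartiles 12.5 and 20.8) in those with an uncovered summit between covered sides and 13.6 in those covered on 1 side. The quartile ranges of neighbouring kinds overlapped. Width did not follow this order, with medians of 4925, 4950, 5035 and 4731 bp. H3K4me1 itself was strongest in the wholly covered regions, at a median of 10.3-fold for the strongest H3K4me1 region met. It was lowest where the summit was uncovered, at 8.34-fold between covered sides and 8.42-fold with H3K4me1 on 1 side. Where the summit was uncovered and H3K4me1 lay on both sides, the H3K4me1-free stretch around it had a median of 1632 bp (quartiles 1052 and 2410 bp), and with H3K4me1 on 1 side only it had a median of 3928 bp. Of the 125 regions with an uncovered summit, the longer arm from summit to end was the more covered one in 70, the shorter arm in 52 and neither in 3. An H3K4me1-free stretch of a given length takes up more of a shorter arm, so these counts are a description. Over all 427 the longer arm was more covered in 137, the shorter arm in 148 and neither in 142.

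**Figure D4:**
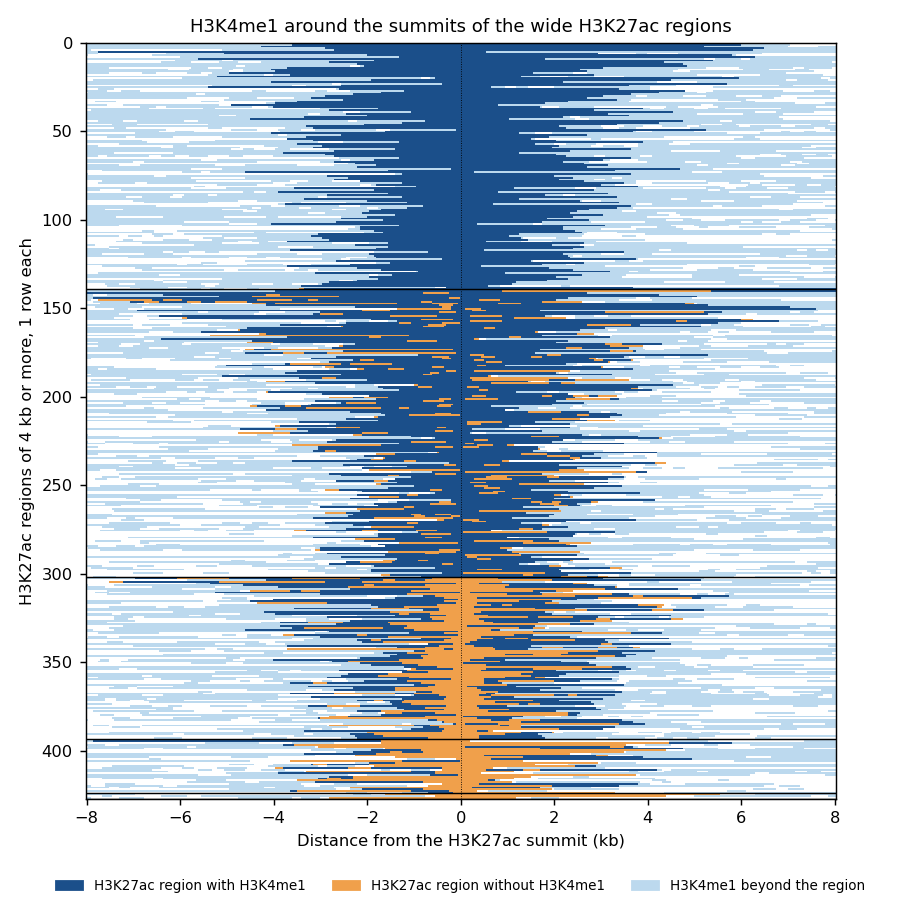
Each row is 1 of the 427 wide regions, aligned at its H3K27ac summit (kb from the summit), with the acetylated region in dark blue where H3K4me1 was present and orange where it was absent, and H3K4me1 beyond the region in pale blue. Black lines part the 5 layouts, from 139 wholly covered regions at the top to the 3 without H3K4me1 at the bottom, and within each layout the widest regions come first.

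Among regions of 10-fold or more, the summits of wide regions lay inside H3K4me1 more often than those of narrower regions of like fold. Over all strengths the summit was covered in 302 of 427 wide regions (70.7%, interval 66.2 to 75%), against 54.2% (interval 52.5 to 55.9%) of regions of 2 to 4 kb and 58.4% of all autosomal regions. From 10-fold to 20-fold it was covered in 179 of 249 wide regions (71.9%, interval 65.9 to 77.4%), against 630 of 1552 regions of 2 to 4 kb (40.6%, interval 38.1 to 43.1%). The median fold in that class was 13.6 in both. Shares were 21.8% at 1 to 2 kb and 20.6% under 1 kb.

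At 20-fold or more a gap was also seen, in fewer wide regions, and whether it differed in size was not tested. The summit was covered in 33 of 64 wide regions (51.6%, interval 38.7 to 64.3%), against 40 of 423 regions of 2 to 4 kb (9.46%, interval 6.84 to 12.65%), at median folds of 23.8 and 23.0. From 6-fold to 10-fold no such gap was seen, with 84 of 106 wide regions (79.2%, interval 70.3 to 86.5%) against 81.2% of regions of 2 to 4 kb (interval 78.7 to 83.4%). Below 6-fold there were 8 wide regions, 6 of them covered at the summit, which is too few to compare. Among the wide regions the share was about even over width, at 70.9% from 4 to 5 kb, 68.9% from 5 to 6 kb and 72.3% at 6 kb or more.

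**Figure D5:**
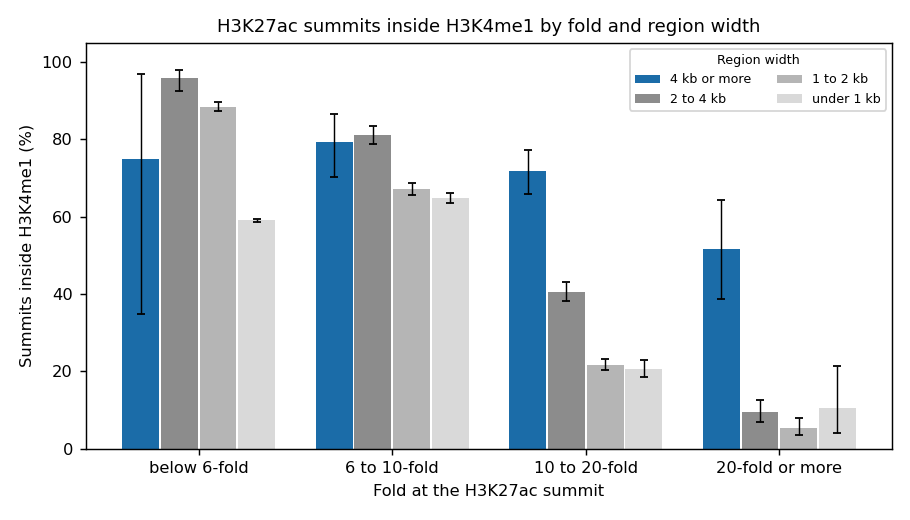
Bars give the share of H3K27ac summits inside H3K4me1 (%) for 4 classes of the authors' fold, with regions of 4 kb or more in blue and narrower ones in grey, and error bars are exact 95% binomial intervals. From 10-fold on, the blue bars (71.9% and 51.6%) stand above those of 2 to 4 kb (40.6% and 9.46%), and from 6-fold to 10-fold the pair is level.

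The contrast was also seen by summit reads. These were solved from the same deposited fold and −log10 p, so they are not a separate measure of strength. With summit reads in place of fold, coverage of the summit at 40 to 59 reads was 70.3% in 165 wide regions, against 40.02% in 952 regions of 2 to 4 kb. At 60 to 89 reads it was 62.4% of 85, against 17.4% of 596, and at 90 or more reads 10 of 24, against 2 of 103. At 30 to 39 reads it was 80.2% of 111, against 67.6% of 747, and under 30 reads 81.0% of 42, against 87.6% of 926.

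The local background was raised, that is more than 5% above the genome-wide level, at 33.5% of wide summits and 25.3% of summits at 2 to 4 kb. Among summits without a raised background the shares from 10-fold to 20-fold were 68.0% of 181 and 38.1% of 1253, and at 20-fold or more 27 of 54 and 39 of 389. The part that the background plays in the remaining difference was not tested.

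The summit itself was H3K4me1-free in 125 wide regions, and in others a gap lay beside a covered summit. At 20-fold or more, H3K4me1 covered 51.6% of wide summits but 44.5% of positions 250 bp to either side, and 74.2% at 1 kb. In regions of 2 to 4 kb of that strength it covered 9.46% of summits, 12.3% of positions at 250 bp and 66.7% at 1 kb. In the 163 wide regions with a covered summit and incomplete cover, the nearest H3K4me1-free base was a median of 506 bp away (quartiles 202 and 1606 bp), and it was within 250 bp in 51.

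Counting any H3K4me1-free base of the region within 250 bp of the summit narrowed the contrast at 20-fold or more. Such a base was present in 44 of 64 wide regions at 20-fold or above (68.8%, interval 55.9 to 79.8%), against 96.9% (interval 94.8 to 98.3%) of regions of 2 to 4 kb. From 10-fold to 20-fold it was present in 40.2% (interval 34.0 to 46.5%), against 70.3% (interval 68.0 to 72.6%), so the contrast there hardly changed. An H3K4me1-free stretch between H3K4me1 regions was found in 216 of the 427 wide regions (50.6%), against 47.1% at 2 to 4 kb, but the largest such stretch was shorter, with a median of 725 bp against 1181 bp. At the strongest wide regions a gap near the summit was thus frequent, and the summit base itself was covered in about as many regions as not.

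The 5 wide regions of highest fold all had an uncovered summit. They lay at chr5:22936104-22941821 and chr12:111722061-111727095 (34.3-fold and 115 reads each), chr7:29159607-29169629, already described, and chr2:167598912-167605361 and chr13:59868484-59873844 (32.5-fold each). Their H3K4me1-free stretches at the summit measured 4635, 1275, 1407, 426 and 2037 bp. By summit reads the order differs, since the highest number in any wide region, 116, lay at a covered summit. Of the 5 weakest, 4 lay wholly in H3K4me1. These were at chr4:154534606-154539483 (4.81-fold), chr3:103603078-103607773 (5.32-fold), chr5:112708922-112714112 (5.44-fold) and chr14:61320969-61325073 (5.71-fold). The fifth, at chr15:80627893-80631912 (5.80-fold), was 48.7% covered. All 5 weakest had a local background of 1.39 to 2.18 times the genome-wide level, which lowers a fold for the same reads.

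Wide acetylation without H3K4me1 was rare. The largest of the 3 uncovered regions lay at chr11:18913161-18920334, spanned 7174 bp and reached 13.3-fold with 44 reads, inside an H3K4me1-free stretch of 8221 bp. It belonged to the domain ranked 10 by acetylated length. The others lay at chr3:96360554-96365529 (11.3-fold, free stretch of 5703 bp) and chr14:106294045-106298058 (13.0-fold, 4498 bp). H3K4me1 resumed close by in each, covering 19.1% and 62.3% of the 2 kb before and after the first, 92.0% and 71.6% beside the second and 77.4% and 31.6% beside the third. Next came a region at chr5:109984366-109988575 (29.8-fold and 100 reads, 2.64% covered). A region at chr6:88143366-88150711 (7346 bp, 15.1-fold) was 3.51% covered and had its summit within 0.043 of the centre.

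At the opposite end, the widest wholly covered regions were the one at chr11:70393109-70403180 named above, chr17:84556543-84566155 (9613 bp, 12.4-fold), chr14:41741086-41750534 (9449 bp, 10.3-fold), chr14:26334300-26343695 (9396 bp, 10.7-fold), and chr18:35994355-36003318 (8964 bp, 10.9-fold). Each lay inside 1 H3K4me1 region of 16.8 to 27.9 kb. Their folds, from 10.3 to 12.4, were all below the median of the wide regions.

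Wide regions seldom stood alone. Another H3K27ac region lay within 500 bp of 291 of the 427 (68.1%) and within 1 kb of 361 (84.5%), against 46.8% and 60.1% of regions of 2 to 4 kb. The nearest was a median of 314 bp away, and the shortest distance on the autosomes was 186 bp, so acetylated stretches closer than that appear as 1 region. With a joining distance of 12.5 kb between H3K27ac regions, the 427 fell into 349 of 30221 domains. Of these, 296 held 1 wide region, 37 held 2, 10 held 3, 4 held 4, 1 held 5 and 1 held 6. Only 4 wide regions formed a domain by themselves. In the domains that held one, wide regions supplied a median of 38.4% of the acetylated length.

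Ranked by acetylated length, the first 1% of domains numbered 302, of which 152 held a wide region, and 227 of the 427 wide regions (53.2%) lay in them, against 20.6% of regions of 2 to 4 kb. The width of the region itself enters that ranking, so this share is a description. Summits were inside H3K4me1 in 78.0% of the 227 (interval 72.0 to 83.2%) and in 62.5% of the other 200 (interval 55.4 to 69.2%). Regions of 2 to 4 kb had 79.0% and 47.8%, at median folds of 8.86 and 12.1, against 12.7 and 13.3 for the wide regions. The median cover in the first 1% of domains was 94.6% for wide regions and 100% for those of 2 to 4 kb. From 6-fold to 10-fold, 78.9% of wide summits in these domains were covered, against 91.4% at 2 to 4 kb, and elsewhere 79.6% against 76.7%. At 20-fold or more the shares were 21 of 28 inside these domains and 12 of 36 elsewhere. Regions of 2 to 4 kb at that strength had 8 of 31 and 32 of 392, and from 10-fold to 20-fold the wide regions had 78.3% and 64.0% against 62.4% and 36.6%. The wide regions had the higher share in both settings from 10-fold on, but not in these domains from 6-fold to 10-fold.

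The domain with most wide regions lay at chr17:84245180-84437300, where 6 of them made up 49.1 of 90.8 kb acetylated. They included the widest of all, and H3K4me1 covered between 91.9 and 100% of each. The last 3 followed each other from position 84370169 to 84389901 with gaps of under 200 bp, at 13.6-fold, 20.4-fold and 19.2-fold. The next domain, at chr17:84478949-84621078, held 4 more, all covered at the summit. At chr4:154489641-154625146, 5 wide regions made up 32.3 of 64.4 kb, from 4.81-fold to 24.5-fold, and 4 of them lay wholly in H3K4me1.

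The layouts were mixed in other domains. At chr2:103711942-103831275, 4 wide regions made up 33.6 of 60.5 kb. The 3 with the lower coordinates had covered summits, and the last, from 103807540 to 103814519 (17.4-fold), had an uncovered summit and 46.5% of its length in H3K4me1. At chr16:11417624-11542218, 4 wide regions lay between 11441071 and 11465086, and their H3K4me1 cover was 93.1%, 24.6%, 39.7% and 87.1%. At chr11:23949442-24274013 the first of 4 was 18.2% covered and the others 94.1 to 100%.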

How the data were processed

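The deposited H3K27ac and H3K4me1 peak lists, 1 library each, were used, with groups from the sample titles. Per the submitters' processing notes, MACS2 2.0.10.20131216, Bowtie2 2.0.6 and build mm9 were used. Read filters, caller options and its control are not given in the sources used here. Per peak the authors deposited start and end, a summit offset, a fold (a ratio), −log10 p and −log10 q values, and a score that was not used. Within a list, 0 peaks overlapped. Region width depends on depth and on the caller's threshold.

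Positions are mm9, counted from 1. Summit reads and local background were solved from the deposited fold and −log10 p, assuming fold is (reads + 1)/(background + 1) and p a Poisson tail. A whole read number gave p within 0.001 at all 93413 H3K27ac and 155027 H3K4me1 summits. Library totals are not known here, and genome-wide backgrounds came to 2.38 (H3K27ac) and 3.75 (H3K4me1) reads. Shares have exact Clopper-Pearson 95% intervals. The functions were tested on simulated data.

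The regions and classes were chosen with earlier results of these data known. Named regions are the 10 widest, the extremes of fold, summit position and H3K4me1 cover, those at the width limit and, chosen after their values were seen, those in domains with most wide regions. Alternatives changed the width limit, the lists and the overlap rule. Calculations ran in Python 3.11.15 with scipy 1.17.1, pandas 2.3.3 and numpy 2.4.6, and plots in matplotlib 3.10.9.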

Additional observations from a re-analysis of the deposited data

How the results depend on the processing

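Of 52 alternative values, 38 stayed inside the exact 95% interval of the reported value or, for the number of regions, within a factor of 1.5. The share of wide regions that met H3K4me1 (99.3%) was 97.0% with H3K4me1 at a −log10 q of at least 10, 99.93% with H3K27ac joined over 500 bp, 93.9% with 50% of the shorter region shared and 100% when H3K4me1 within 1 kb counted. The share of summits inside H3K4me1 (70.7%) was 76.3% with H3K4me1 joined over 1 kb and 65.1% at a width of 3 kb or more. Joining H3K4me1 over 1 kb, which fills short gaps, also gave a median cover of 100% (91.7% as reported) and put 15.9% of the wide regions (21.3% as reported) in the layout with an uncovered summit between covered sides. That share was 16.6% at an H3K4me1 −log10 q of at least 10 and 7.49% when H3K4me1 had to lie 1 kb away on both sides. The number of wide regions (427) was 1092 at 3 kb, 200 at 5 kb, 1352 after joining H3K27ac over 500 bp and 284 with only genome-wide local background. The median summit position stayed within its interval in all 6 alternatives tried for it. Taking 1 wide region per domain and dropping H3K4me1 regions under 1 kb were chosen after seeing the data. All 52 values are of the wide regions alone, so the contrast in summit cover with regions of 2 to 4 kb is not among them. No paired analysis was possible because the marks come from 1 library apiece. Sequencing depth limits the H3K4me1-free stretches, since H3K4me1 below the caller's threshold is not listed.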
